A study of Mus musculus with 12 samples.

Results

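The liver-enriched transcription factors described here are 8 genes: Hnf4a, Foxa1, Foxa2, Foxa3, Cebpa, Cebpb, Cebpd and Onecut1. They were listed by name, and each was measured by the transcript cluster (the probe group of the array) annotated to that gene alone. Each of the 8 had 1 such cluster, among 19938 genes that had at least 1. These proteins bind the promoters and enhancers of hepatocyte genes, and each other's genes, and together they set and keep the hepatocyte programme. HNF4A is a nuclear receptor that many genes of lipid, bile acid and clotting factor metabolism need. The FOXA proteins are forkhead pioneer factors that open liver chromatin. The C/EBP proteins are leucine zipper factors: C/EBPα drives metabolic genes, while C/EBPβ and C/EBPδ act with STAT3 on acute phase genes. ONECUT1, also called HNF6, is a cut-homeodomain factor of hepatocytes, bile ducts and pancreas that regulates Foxa2 and Hnf4a during development.

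The study measured whole liver RNA of mice aged 2 weeks on Affymetrix arrays, with 12 arrays in 4 genotypes of 3 arrays each, lettered A, B and C. All groups carry either a floxed or a deleted Stat3 allele. Stat3Fl/Fl livers have the floxed gene, Stat3Δhc livers are the Stat3 knockout, and Stat3Fl/FlMdr2-/- and Stat3Δhc Mdr2-/- livers lack Mdr2 in addition. Mdr2 is the older name of Abcb4, the phospholipid flippase of the bile canaliculus, and mice without it develop cholangitis as bile leaks past the duct wall. STAT3 is the transcription factor activated by interleukin-6 family cytokines. The Cre driver and the meaning of Δhc are not given in the sources used here. The labels do not say that the arrays are separate animals, so p-values measure the spread between these samples. No group with an unfloxed Stat3 gene was analysed here. The comparisons ask how Stat3 deletion changed the factors with and without the Mdr2 knockout, and how Mdr2 loss changed them on each Stat3 background.

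The values were deposited as log2 signals made with RMA, and array medians lay between 6.01 and 6.14. Within a genotype, arrays correlated at 0.98 to 0.991 over all 35556 transcript clusters. Stat3 lay at 9.19 to 9.54 in the floxed arrays and at 7.69 to 8.12 in the Stat3Δhc arrays. Abcb4 lay at 10 to 10.28 without and at 8.87 to 9.36 with the Mdr2 knockout. A source name label swaps the genotypes of both Mdr2-/- groups against the titles, and the Stat3 signals go with the titles, which are used here. The mean of 12 hepatocyte markers (Alb, Ttr, Apoa1 and others) was near the top of the scale on every array, where the highest value was 14.54. It was 12.40 to 12.65 in Stat3Fl/Fl and 12.74 to 12.77 in Stat3Δhc arrays. With the Mdr2 knockout it was 12.32 to 12.47 in floxed and 12.47 to 12.62 in Stat3Δhc livers. Stellate cell markers averaged 8.84 to 8.96 in Stat3Δhc Mdr2-/- arrays and 9.18 to 9.46 in the other groups, but they did not move together. With Mdr2 loss in Stat3Δhc liver 3 of 10 were called higher and 4 lower, against 6.9% and 10.5% of all tested genes. The mean signal of Col1a1 was 10.17 in Stat3Δhc and 10.96 in Stat3Δhc Mdr2-/- arrays, and that of Ecm1 9.97 and 8.11. Erythroid markers averaged 6.40 to 6.81 without and 5.93 to 6.17 with the Mdr2 knockout. Skeletal muscle markers averaged 8.57 to 9.26 on the 6 arrays without and 5.44 to 5.8 on the 6 with the Mdr2 knockout, and 18 of 18 were lower in both Mdr2 comparisons. Exocrine pancreas markers (13 genes) averaged 5.75 to 9.67 without and 5.45 to 5.8 with the knockout, and bile duct markers (8 genes) 6.3 to 6.73 over all arrays. Single bile duct markers moved in opposite directions: of 7 tested, 1 was called higher and 1 lower with Stat3 deletion on the Mdr2 knockout. The shares over all tested genes were 1.87% and 3.9%. The mean signal of Tff3 was 7.01 in Stat3Fl/FlMdr2-/- and 8.90 in Stat3Δhc Mdr2-/- arrays, and that of Prom1 8.20 and 6.47. All 3 Stat3Fl/FlMdr2-/- arrays and array A of Stat3Δhc Mdr2-/- showed the Xist pattern of female tissue, and the other 8 that of Y-linked genes. The part of these differences in the results below was not tested beyond the covariate fits that are given.

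Of the 8 factors, 7 passed the filter on dim genes (above the 40th percentile of the array on at least 3 arrays) and were tested with limma among 13977 genes. Cebpd did not pass. A change was called at a Benjamini-Hochberg adjusted p under 0.05 over those genes. The range of the 4 group means was 1.37 log2 units for Onecut1, larger than for 98.2% of the tested genes. It was 0.53 for Foxa2, 0.42 for Foxa3 and 0.41 for Cebpb, against a median of 0.3 over all tested genes. For Hnf4a, Foxa1 and Cebpa it was 0.21 to 0.24, below that median. Levels of different genes cannot be set against each other on an array, so each gene is compared with itself.

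**Figure D1:**
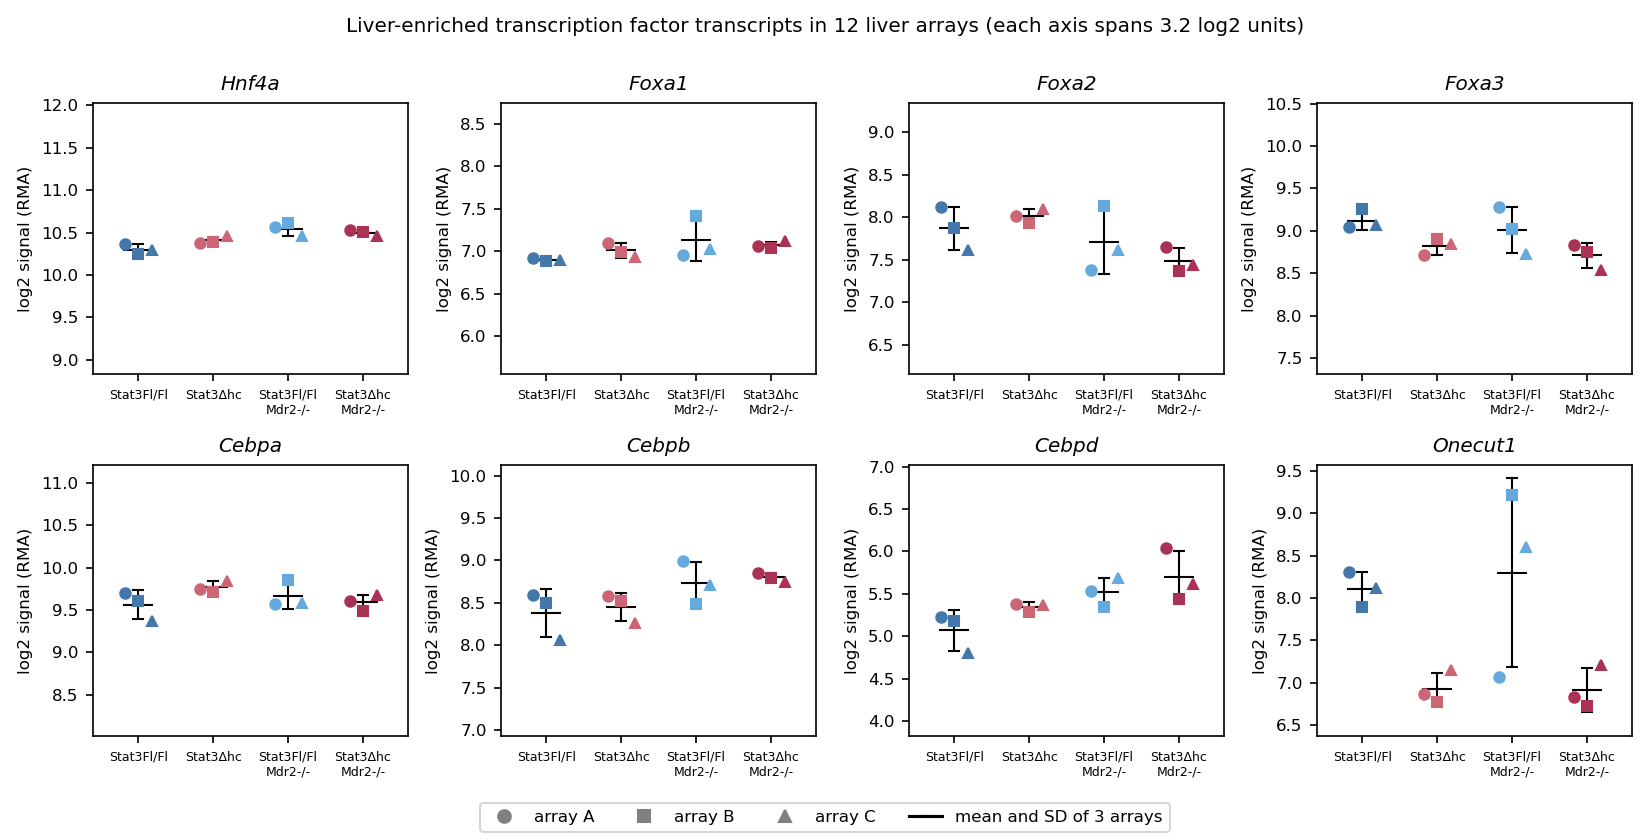
Log2 signal (y axis, RMA) of the 8 factors on the 12 arrays by genotype (x axis), with points for arrays A, B and C and a bar for the mean and SD of 3 arrays. Each panel spans the same number of log2 units. Onecut1 is the panel in which the Stat3Δhc groups (6.73 to 7.21) lie apart from 5 of the 6 floxed arrays, and the Hnf4a points hardly leave their group means.

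Onecut1 carried the largest difference among the factors, and it followed the Stat3 genotype. Its log2 signal was 8.31, 7.90 and 8.12 in Stat3Fl/Fl and 6.87, 6.77 and 7.15 in Stat3Δhc arrays. It was 7.07, 9.21 and 8.60 in Stat3Fl/FlMdr2-/- and 6.83, 6.73 and 7.21 in Stat3Δhc Mdr2-/- arrays. The first pair of groups did not overlap, and the second did only through array A of Stat3Fl/FlMdr2-/-. Thus 5 of 6 floxed arrays lay at 7.90 to 9.21, above all 6 Stat3Δhc arrays, which reached from 6.73 to 7.21. In bulk liver, fewer cells of a type and less RNA per cell cannot be told apart.

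In the separate comparisons the Onecut1 difference did not pass the test across all genes. Without the Mdr2 knockout Onecut1 was 2.27-fold lower in Stat3Δhc (log2 change -1.18, SE 0.38, 95% interval -2.01 to -0.35, limma adjusted p = 0.126). On the Mdr2 knockout it was 2.59-fold lower (log2 change -1.37, SE 0.38, interval -2.20 to -0.55, limma adjusted p = 0.0538). The change exceeded that of 99.6% and 99.8% of the tested genes, but its SD over arrays was also large: pooled within groups it was 0.59, above that of 99.5% of the genes. The spread was widest in the Stat3Fl/FlMdr2-/- group, with an SD of 1.11 against 0.19 to 0.26 in the other groups. Without array A of that group, the limma adjusted p was 0.00744 for the first comparison and 0.000543 for the second, where the log2 change was -1.99. In each comparison this was the 1 omission of 12 that gave a call. Over all 12 the adjusted p reached 0.338 and 0.159, and the second log2 change reached -0.91.

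The mean of both Stat3 effects, a contrast added after the values were seen, was called. Onecut1 fell 2.42-fold over both backgrounds (log2 change -1.28, SE 0.27, interval -1.86 to -0.69, limma adjusted p = 0.0113). It stayed called when each of the 12 arrays was left out in turn, with log2 changes from -1.58 to -1.05. With the Xist and Y-linked pattern as a covariate the change was -1.33 at an adjusted p of 0.055, and with groups by the source name it was 0.10 at 0.855. With the exocrine pancreas or muscle mean as a covariate it was -1.27 and -1.28. Onecut1 was the only factor called in this contrast, in which 10.2% of the tested genes were called and 6.05% were lower.

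No difference of Onecut1 with Mdr2 loss was detectable. The log2 change was 0.18 in floxed liver (interval -0.65 to 1.01, limma adjusted p = 0.81) and -0.01 in Stat3Δhc liver (interval -0.84 to 0.82, adjusted p = 0.986). Both intervals are wide and span 0. In floxed liver the value turned on array A: without it the change was 0.80 at an adjusted p of 0.028.

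**Figure D2:**
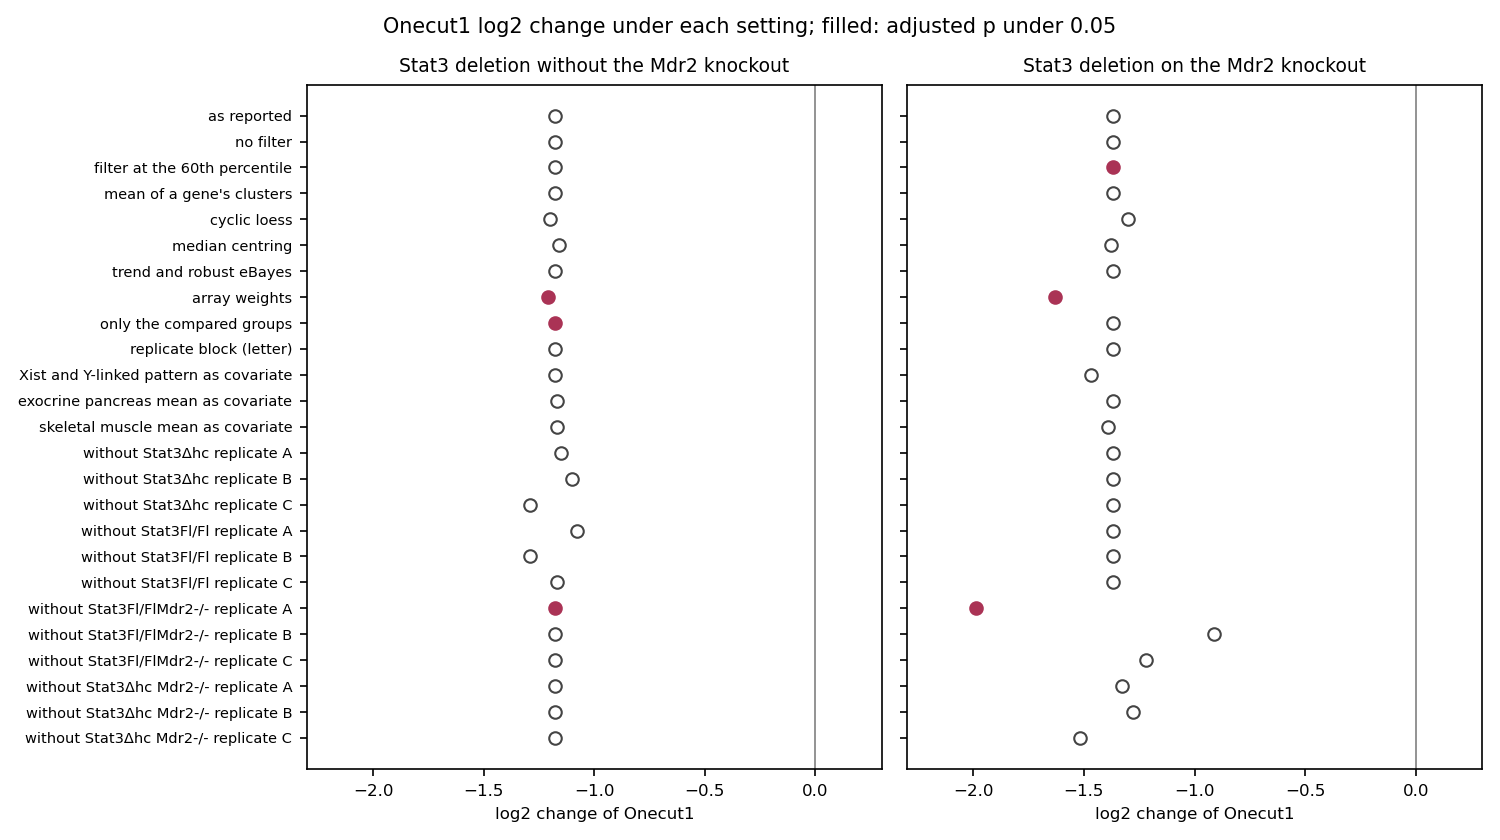
Log2 change of Onecut1 (x axis) between Stat3Δhc and floxed liver without and on the Mdr2 knockout, under each setting (y axis, 1 setting a line, groups by title). Filled points passed an adjusted p of 0.05. Points in the left panel lie between -1.29 and -1.08, and in the right panel leaving out Stat3Fl/FlMdr2-/- array A or B moves the value to -1.99 or -0.91.

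The 250 bases before the outermost annotated start are shown for Onecut1, the member with the largest Stat3 difference, and Foxa2, the member called in a planned comparison, from RefSeq on GRCm38.p6. The Onecut1 stretch is chr9:74861671-74861920 on the + strand and the Foxa2 stretch chr2:148046970-148047219 on the - strand, each printed 5′ to 3′ along its gene. Lower case throughout means that no searched motif was found.
Onecut1: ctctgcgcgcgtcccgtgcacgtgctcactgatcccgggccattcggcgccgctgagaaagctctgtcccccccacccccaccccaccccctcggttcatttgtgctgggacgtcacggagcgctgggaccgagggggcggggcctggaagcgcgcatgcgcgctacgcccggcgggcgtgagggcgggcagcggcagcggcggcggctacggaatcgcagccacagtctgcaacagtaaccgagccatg
Foxa2: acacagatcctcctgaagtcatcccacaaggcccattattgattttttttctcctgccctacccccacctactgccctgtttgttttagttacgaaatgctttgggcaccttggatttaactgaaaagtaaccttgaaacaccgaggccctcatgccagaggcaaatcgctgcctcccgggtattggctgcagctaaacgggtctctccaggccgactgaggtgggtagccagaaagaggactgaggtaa
The Onecut1 stretch has 71.6% G and C and the Foxa2 stretch 50.8%, against a median of 52.4% over all windows of the same length. The motifs were a STAT site TTCNNNGAA, a C/EBP site TTGCGCAA and a forkhead site TGTTTAC, on both strands of 300-base windows that reach 50 bases past the start. Windows were found for 7 of the 8 factors, 10 in all, Cebpd having none. The STAT motif was in 0 of the 10 windows and in 8.3% of 32851 windows of all genes. The C/EBP motif was in 0 of 10 and in 0.183% of all. The forkhead motif was in 1 of 10, at Foxa1 (position -141 from the start), and in 3.65% of all. Absence says only that these letters are not in these windows.

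Hnf4a, which runs over chr2:163506811-163572907, was the steadiest of the factors across arrays. Its log2 signal was 10.36, 10.25 and 10.30 in Stat3Fl/Fl and 10.38, 10.39 and 10.46 in Stat3Δhc arrays. With the Mdr2 knockout it was 10.56, 10.61 and 10.46 in Stat3Fl/Fl and 10.53, 10.51 and 10.46 in Stat3Δhc livers. The Stat3Fl/Fl arrays were the lowest and overlapped with no other group, while the 3 other groups ran into each other. Its pooled SD of 0.05 was so small that only 1.85% of the tested genes had a smaller SD.

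Stat3 deletion moved Hnf4a by 0.11 without (interval -0.06 to 0.27, limma adjusted p = 0.541) and by -0.04 on the Mdr2 knockout (interval -0.21 to 0.12, adjusted p = 0.707). No end of these intervals lay further from 0 than 0.27. With Mdr2 loss the log2 change was 0.24 in floxed liver, short of the threshold (SE 0.07, interval 0.08 to 0.40, limma adjusted p = 0.0535), and 0.09 in Stat3Δhc liver (interval -0.07 to 0.25, adjusted p = 0.411). Over both backgrounds Hnf4a rose 1.12-fold with Mdr2 loss (log2 change 0.16, SE 0.05, limma adjusted p = 0.0386, a contrast added after the values were seen). In that mean of both Mdr2 effects 2 of 7 factors were called, both higher, while 24.6% of the tested genes were called and 11% were higher. The Hnf4a call was lost when each array was centred on its median (0.11, adjusted p = 0.195) and with the Xist and Y-linked pattern as a covariate (0.13, adjusted p = 0.379). Leaving out array A or B of any genotype but Stat3Fl/Fl, or B or C of that, ended it as well, at adjusted p from 0.0682 to 0.0944. With the muscle mean as a covariate, which separates the Mdr2 groups, the value was 0.00. In floxed liver alone, the change passed without Stat3Δhc Mdr2-/- array C (adjusted p = 0.0432).

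The FOXA genes did not move as a group. Foxa2 was the only factor called in a planned comparison. Its log2 signal was 8.01, 7.93 and 8.10 in Stat3Δhc and 7.65, 7.37 and 7.44 in Stat3Δhc Mdr2-/- arrays. These groups did not overlap. Foxa2 fell 1.44-fold with Mdr2 loss in Stat3Δhc liver (log2 change -0.53, SE 0.17, interval -0.89 to -0.16, limma adjusted p = 0.0498). That is 1 of 7 factors, in a comparison in which 17.4% of the tested genes were called in either direction and 10.5% were lower. The call lay at the threshold: leaving out an array gave adjusted p from 0.0169 to 0.157 and kept it in 5 of 12 cases. It was lost without Stat3Δhc array A (0.114), B (0.0641) or C (0.157), without Stat3Δhc Mdr2-/- array B (0.121) or C (0.13), and without Stat3Fl/Fl array B (0.0642) or Stat3Fl/FlMdr2-/- array C (0.0614). Cyclic loess also ended it (-0.46, adjusted p = 0.0783).

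In floxed liver, where Foxa2 was 8.12, 7.87 and 7.62 without and 7.38, 8.13 and 7.61 with the Mdr2 knockout, the arrays overlapped and the log2 change was -0.16 (interval -0.53 to 0.20, limma adjusted p = 0.596). The pancreas markers, whose tissue also expresses Foxa2, averaged 5.9, 7.78 and 9.67 on the Stat3Δhc arrays A, B and C. With the pancreas mean as a covariate the Foxa2 change was -0.58 at an adjusted p of 0.158, and with the muscle mean it was -0.50 at 1. Stat3 deletion gave Foxa2 values of 0.14 (adjusted p = 0.746) and -0.22 (adjusted p = 0.405).

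Foxa3, a FOXA gene of liver and gut endoderm, had a lower mean signal in Stat3Δhc liver on both backgrounds, short of the threshold. Its signal was 9.05, 9.26 and 9.07 in Stat3Fl/Fl and 8.71, 8.90 and 8.84 in Stat3Δhc arrays. It was 9.28, 9.02 and 8.73 in Stat3Fl/FlMdr2-/- and 8.83, 8.75 and 8.54 in Stat3Δhc Mdr2-/- arrays. The first pair of groups did not overlap and the second did. The log2 changes were -0.31 (interval -0.59 to -0.03, limma adjusted p = 0.256) and -0.30 (interval -0.58 to -0.02, adjusted p = 0.15). The mean of both was -0.31 at an adjusted p of 0.0521, and -0.24 at 0.293 with the Xist and Y-linked pattern as a covariate. That mean passed without Stat3Fl/FlMdr2-/- array C (adjusted p = 0.0193) or Stat3Δhc Mdr2-/- array A (0.0469). These were 2 of 12 omissions, and the others did not pass, at adjusted p up to 0.129.

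Foxa1 lay at 6.88 to 6.92 in Stat3Fl/Fl, 6.93 to 7.10 in Stat3Δhc, 6.95 to 7.42 in Stat3Fl/FlMdr2-/- and 7.04 to 7.12 in Stat3Δhc Mdr2-/- arrays. The Stat3Fl/Fl arrays were below all others by a small margin. The largest of its 4 log2 changes was 0.23 with Mdr2 loss in floxed liver (interval 0.00 to 0.47, limma adjusted p = 0.198), and the others lay between -0.06 and 0.11.

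Among the C/EBP genes, Cebpb and Cebpd had higher mean signals with Mdr2 loss on both backgrounds, and Cebpa only in floxed liver. Cebpb was 8.59, 8.50 and 8.06 in Stat3Fl/Fl and 8.58, 8.52 and 8.26 in Stat3Δhc arrays. With the Mdr2 knockout it was 8.99, 8.48 and 8.71 in floxed and 8.85, 8.79 and 8.75 in Stat3Δhc livers. Only the Stat3Δhc pair of groups did not overlap. The log2 change was 0.34 in floxed (interval 0.02 to 0.66, limma adjusted p = 0.165) and 0.34 in Stat3Δhc liver (interval 0.02 to 0.67, adjusted p = 0.124), with no call in either.

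Over both backgrounds Cebpb rose 1.27-fold (log2 change 0.34, SE 0.11, limma adjusted p = 0.0311, in the contrast added after the values were seen). Median centring took it to 0.29 at 0.0594, the pancreas mean as a covariate to 0.22 at 0.392, and the muscle mean to -0.17 at 1. The call was also lost without Stat3Δhc array C (0.0773), Stat3Fl/Fl array C (0.0717), Stat3Fl/FlMdr2-/- array A (0.0744) or C (0.0548), or Stat3Δhc Mdr2-/- array A (0.0562) or B (0.0524). Stat3 deletion left it at 0.07 on both backgrounds (intervals -0.25 to 0.39, adjusted p = 0.868 and 0.774).

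Cebpd was dim, above the 40th percentile on 2 arrays, so its values are near the level of dim probes. Its log2 signal was 5.23, 5.18 and 4.80 in Stat3Fl/Fl and 5.38, 5.29 and 5.37 in Stat3Δhc arrays. It was 5.53, 5.34 and 5.69 in Stat3Fl/FlMdr2-/- and 6.04, 5.44 and 5.61 in Stat3Δhc Mdr2-/- arrays. The group means ran from 5.07 to 5.70 in that order, and the Stat3Fl/Fl arrays overlapped with no other group. No fold and no test are given for it.

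Cebpa was 9.70, 9.60 and 9.37 in Stat3Fl/Fl and 9.75, 9.71 and 9.84 in Stat3Δhc arrays, which did not overlap. It was 9.57, 9.85 and 9.58 in Stat3Fl/FlMdr2-/- and 9.61, 9.49 and 9.68 in Stat3Δhc Mdr2-/- arrays, which did. The log2 changes with Stat3 deletion were 0.21 (interval -0.03 to 0.44, limma adjusted p = 0.37) and -0.08 (interval -0.31 to 0.16, adjusted p = 0.658). With Mdr2 loss they were 0.11 and -0.17 (adjusted p = 0.578 and 0.258).

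**Figure D3:**
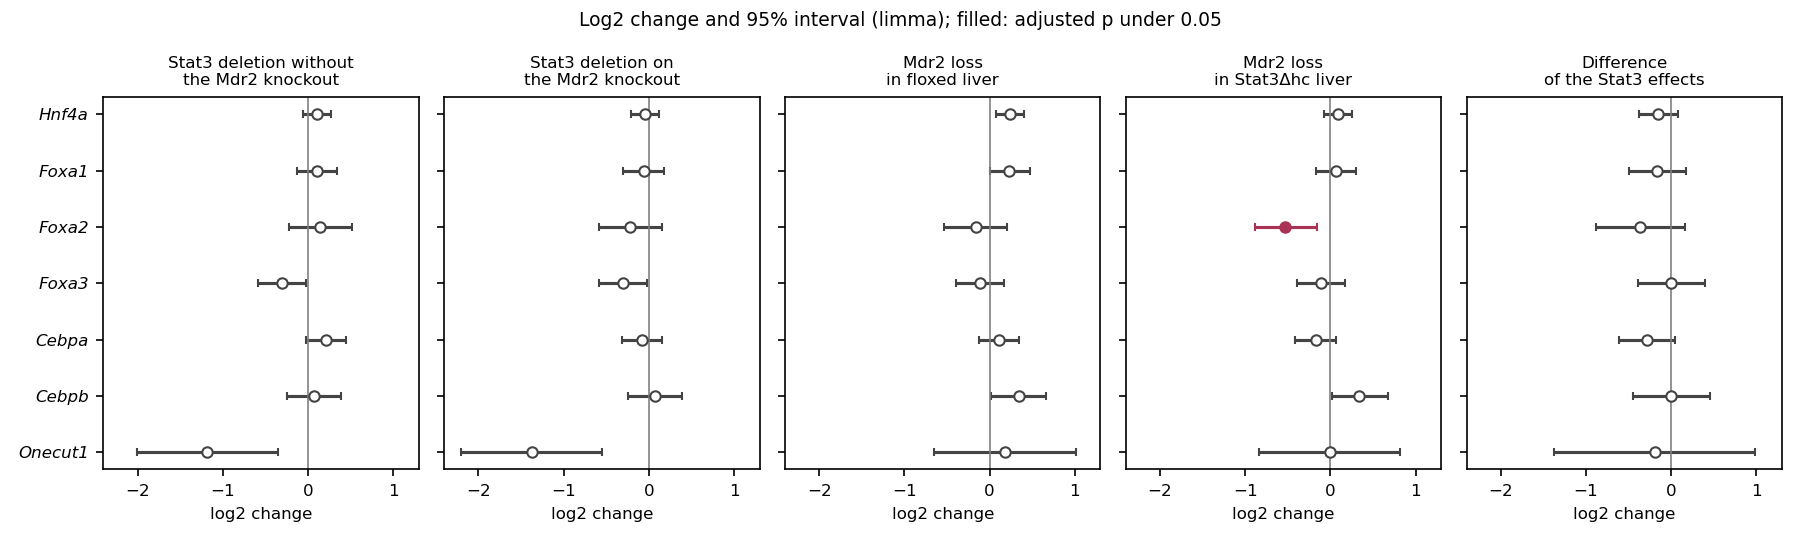
Log2 change (x axis) of the 7 tested factors (y axis) in the 5 planned comparisons, with 95% intervals from limma. The filled point is the 1 call, Foxa2 with Mdr2 loss in Stat3Δhc liver at -0.53. The Onecut1 intervals are the widest and lie below 0 in both Stat3 comparisons.

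Counted over the factors, limma called 0 of 7 with Stat3 deletion without the Mdr2 knockout, where it called 2.58% of the tested genes. It called 0 of 7 on the Mdr2 knockout, where it called 5.77%. Onecut1 and Foxa3 had an unadjusted p under 0.05 in both, 2 of 7 each time, against 16.4% and 28% of the tested genes. The groups did not overlap for 5 of 7 factors in the first comparison, against 25.1% of the tested genes, and for 0 of 7 in the second, against 28.6%. With Mdr2 loss in floxed liver 0 of 7 were called against 12.8% of the genes, with 2 of 7 (Hnf4a and Cebpb) at an unadjusted p under 0.05, near the 25.9% of all tested genes. Groups did not overlap for 2 of 7 there, against 33.3%, and for 3 of 7 in Stat3Δhc liver, against 37.2%.

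The difference between the Stat3 effects was called for 0 of 7 factors and for 0.0715% of the tested genes, and 0 of 7 had an unadjusted p under 0.05, against 16.9% of the tested genes. For Onecut1 it was -0.19 (interval -1.37 to 0.98, limma adjusted p = 0.855). For Foxa2 it was -0.36 (interval -0.88 to 0.16, adjusted p = 0.418) and for Cebpa -0.28 (interval -0.61 to 0.05, adjusted p = 0.342). The Mdr2 and the Stat3 comparisons share arrays, so their values are not independent.

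Genes that act downstream were listed by textbook knowledge for each factor, and some genes stand on several lists. The lists were chosen with earlier results of these data known. Among 22 tested HNF4A targets, 1 rose and 1 fell with Stat3 deletion without the Mdr2 knockout. Of all tested genes 1.51% were called higher there and 1.07% lower. Cyp27a1, an enzyme of bile acid synthesis, rose by 1.11 log2 units (limma adjusted p = 0.00162), and F11, a clotting factor, fell by 0.76 (adjusted p = 0.000793). On the Mdr2 knockout 2 rose and 4 fell, beside 1.87% and 3.9% of all tested genes. Cyp8b1, another bile acid enzyme, rose by 0.89 (adjusted p = 0.0398) and Cyp27a1 by 0.71 (adjusted p = 0.0154). Ugt2b1, a glucuronosyltransferase, fell by 0.84 (adjusted p = 0.0184) and F11 by 0.48 (adjusted p = 0.00913). The list medians were 0.14 and 0.03, against -0.01 and -0.03 over all tested genes.

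With Mdr2 loss, 1 HNF4A target rose and 4 fell in floxed liver, and 2 rose and 6 fell in Stat3Δhc liver. Of all tested genes 7.12% were called higher and 5.65% lower in the first, and 6.9% and 10.5% in the second. In floxed liver Cyp27a1 rose by 0.59 (limma adjusted p = 0.0165) and F11 fell by 0.52 (adjusted p = 0.00203). On the respective backgrounds Agxt, which detoxifies glyoxylate, fell by 0.68 and 0.71 (limma adjusted p = 0.00509 and 0.00335). Abcg5, a sterol transporter subunit, fell by 0.50 and 0.88 (adjusted p = 0.019 and 0.000633). In Stat3Δhc liver Ugt2b1 fell by 1.19 (adjusted p = 0.00087) and Cyp8b1 rose by 0.87 (adjusted p = 0.0212). The list medians were 0.05 and -0.15, against 0.00 and -0.02 over all tested genes.

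Of 12 tested FOXA targets, 1 rose and 1 fell with Stat3 deletion without the Mdr2 knockout. The share of all tested genes called was 2.58% there and 5.77% on the knockout. Afp, the fetal serum protein alpha-fetoprotein, fell 6.09-fold (log2 change -2.61, limma adjusted p = 0.00686). Cps1, the first enzyme of the urea cycle, rose by 0.44 (adjusted p = 0.0495). On the Mdr2 knockout only Tdo2, which degrades tryptophan, was called, and it rose by 1.14 (adjusted p = 0.00376). With Mdr2 loss Afp fell by 1.4 in floxed liver (adjusted p = 0.0418) and rose by 1.72 in Stat3Δhc liver (adjusted p = 0.0138), while Serpina1c, an antitrypsin gene, fell by 0.35 and 0.73 (adjusted p = 0.0479 and 0.000842). Tdo2 fell by 0.66 in floxed liver (adjusted p = 0.0231). In Stat3Δhc liver Ttr fell by 0.36 (adjusted p = 0.0128) and Pck1 rose by 0.50 (adjusted p = 0.0435). Calls with Mdr2 loss thus numbered 3 of 12 in floxed and 4 of 12 in Stat3Δhc liver, against 12.8% and 17.4% of all tested genes. The list medians with Stat3 deletion were 0.13 and 0.40, against -0.01 and -0.03 over all tested genes. With Mdr2 loss they were -0.20 and -0.01, against 0.00 and -0.02.

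The metabolic C/EBP targets (11 tested) gave 2 calls, both up, with Stat3 deletion without the Mdr2 knockout. Arg1, the last enzyme of the urea cycle, rose by 0.91 (limma adjusted p = 0.0215) beside Cps1. Of all tested genes 1.51% were called higher there. On the Mdr2 knockout Fabp1, the liver fatty acid binding protein, fell by 0.58 (adjusted p = 0.00947). It also fell with Mdr2 loss, by 0.43 in floxed and 0.79 in Stat3Δhc liver (adjusted p = 0.0178 and 0.000416). Pck1, an enzyme of gluconeogenesis, rose by 0.50 in the latter (adjusted p = 0.0435). The list medians with Stat3 deletion were 0.15 and 0.38, against -0.01 and -0.03 over all tested genes. On the Mdr2 knockout Fabp1 was the 1 call, while 7 of the 11 genes lay above 0 and 4 below. There 8 of 11 had an unadjusted p under 0.05 from limma, against 28% of all tested genes.

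The acute phase list of C/EBPβ and C/EBPδ targets, which are also known STAT3 targets, lay below 0 for 10 of 10 tested genes in both Stat3 comparisons. Only part of these passed: 1 fell without the Mdr2 knockout and 4 fell on it, beside 1.07% and 3.9% of all tested genes. Apcs, the serum amyloid P component, had log2 changes of -1.01 and -1.26, and fell in both (limma adjusted p = 0.00594 and 0.00156). On the Mdr2 knockout Itih4 fell by 0.46 (adjusted p = 0.00354). Saa2, a serum amyloid A gene (adjusted p = 0.00185), and Orm1, an orosomucoid (adjusted p = 0.031), also fell there. Saa2 lay at 6.09 to 8.49 in Stat3Fl/FlMdr2-/- and at 3.61 to 4.21 in Stat3Δhc Mdr2-/- arrays, and Orm1 at 5.99 to 8.89 and at 4.87 to 5.34. No fold is given for them, since all 3 Stat3Δhc Mdr2-/- arrays lay below the 40th percentile of the array, which was 5.46 to 5.63. Saa2 was above it on 3 Stat3Fl/FlMdr2-/- arrays, 1 Stat3Fl/Fl array and 0 arrays of both Stat3Δhc groups. It thus passed the filter through the group where it was high. Its adjusted p-values and its place among the 4 that fell are therefore no independent support. The list medians were -0.26 and -0.36, against -0.01 and -0.03 over all tested genes. As the list was chosen with earlier results of these data known, its shared direction is a description and no independent support. With Mdr2 loss 3 rose, Saa2 among them, and 0 fell in floxed liver, while 2 rose and 1 fell in Stat3Δhc liver. The list medians were 0.27 and 0.04, against 0.00 and -0.02 over all tested genes. Lcn2, the lipocalin of inflamed epithelium, rose 6.51-fold and 6.93-fold in floxed and Stat3Δhc liver (adjusted p = 0.0002 and 0.000131). Hpx rose by 0.27 and 0.31 (adjusted p = 0.0245 and 0.011). Itih4 fell by 0.33 in Stat3Δhc liver (adjusted p = 0.00717). Of all tested genes 7.12% and 6.9% were called higher, and 5.65% and 10.5% lower. Saa2 rose in floxed liver (adjusted p = 0.0115) from 5.22 to 5.89, where 1 of 3 arrays was above that percentile, to the range above. The signals of Cebpb itself differed by 0.07 in both Stat3 comparisons.

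For Onecut1, limma called 0 of 10 tested target genes in either Stat3 comparison, with 4 of 10 at an unadjusted p under 0.05 in each, where 16.4% and 28% of all tested genes had one. The list medians were 0.20 and 0.30, against -0.01 and -0.03 over all tested genes. In the contrast of both Stat3 effects, added after the values were seen, 3 rose and 0 fell. They were Cyp7a1, the rate-limiting enzyme of bile acid synthesis (1.22, adjusted p = 0.0224), Tat, a tyrosine aminotransferase (0.75, adjusted p = 0.0154), and G6pc, the glucose-6-phosphatase of gluconeogenesis (0.71, adjusted p = 0.044). Of all tested genes 10.2% were called in that contrast and 4.12% were higher. Rises were not particular to the Onecut1 list. Of 22 HNF4A targets 6 rose and 2 fell, and of 12 FOXA targets 4 rose and 1 fell. Of 11 metabolic C/EBP targets 5 rose and 1 fell. Tat and G6pc stand on other lists too. Members Foxa2 and Hnf4a are on the Onecut1 list. With Mdr2 loss in Stat3Δhc liver Foxa2 and Ttr fell and Pck1 rose, 3 of 10, where 17.4% of all tested genes were called.

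**Figure D4:**
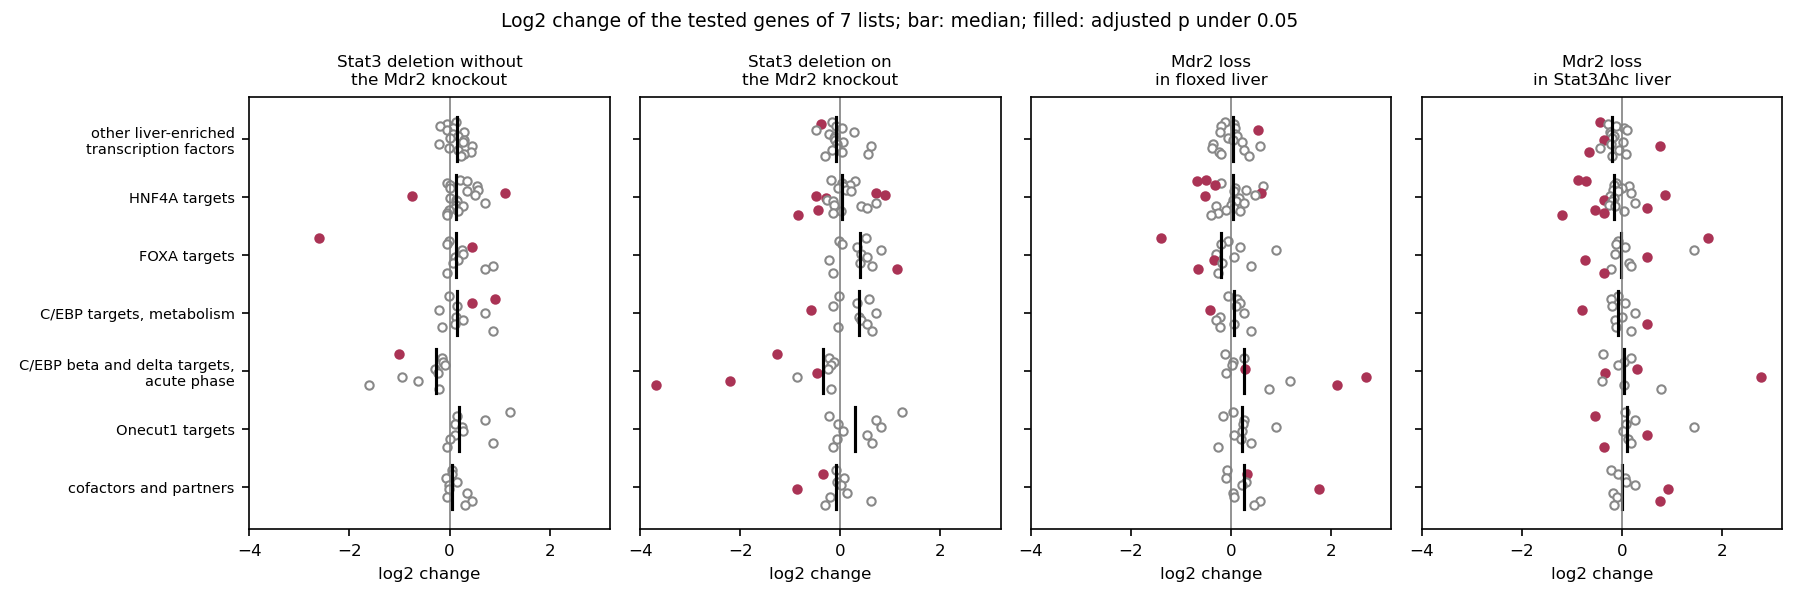
Log2 change (x axis) of the tested genes of 7 lists (y axis) in the 4 comparisons between genotypes. Each point is a gene, bars are list medians and filled points passed an adjusted p of 0.05. The acute phase list lies below 0 in both Stat3 panels, and its Lcn2 point is at 2.70 and 2.79 in the Mdr2 panels.

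Other liver-enriched transcription factors, 18 of 20 tested, gave few calls with Stat3 deletion: limma called 0 without the Mdr2 knockout, with 6 of 18 at an unadjusted p under 0.05 beside 16.4% of all tested genes. On the knockout it called Cebpg, a C/EBP dimer partner, which fell by 0.39 (adjusted p = 0.0458). With Mdr2 loss in floxed liver Hhex, a homeobox factor of early liver, rose by 0.53 (adjusted p = 0.0257). In Stat3Δhc liver 1 of 18 rose and 3 fell, against 6.9% and 10.5% of all tested genes. Tbx3, a T-box factor of liver growth, fell by 0.65 (adjusted p = 0.00253), Atf5, a leucine zipper factor, by 0.43 (adjusted p = 0.0279), and Nr5a2, a nuclear receptor of bile acid and cholesterol genes, by 0.35 (adjusted p = 0.00657). Ppargc1a, the coactivator of HNF4A in fasting, rose by 0.76 (adjusted p = 0.0146).

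Among 10 tested cofactors and partners, Jun, a leucine zipper factor that can pair with C/EBP proteins, rose with Mdr2 loss by 1.75 in floxed and 0.92 in Stat3Δhc liver (limma adjusted p = 1.56e-05 and 0.00187). It fell by 0.86 with Stat3 deletion on the Mdr2 knockout (adjusted p = 0.00903). Crebbp, a histone acetyltransferase, fell by 0.34 in that comparison (adjusted p = 0.0459) and rose by 0.31 with Mdr2 loss in floxed liver (adjusted p = 0.0354). Without the Mdr2 knockout 0 of 10 were called, with 1 of 10 at an unadjusted p under 0.05 beside the same 16.4%.

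The genes whose profile over the 12 arrays was most like each called factor are given as a description, since all points share the same arrays. For Onecut1 they were Gm16551 (Pearson r 0.927), B4galt1, a galactosyltransferase (0.907), and Fam25c (0.898). B4galt1 lay at 9.40 to 9.58 in Stat3Δhc and 9.30 to 9.48 in Stat3Δhc Mdr2-/- arrays, below all 6 floxed arrays at 9.76 to 10.21. For Foxa2 they were Atf1 (0.891), Ccs (0.887) and Tbl3 (0.878). For Hnf4a they were Tmem170b (0.971), Plk3, a polo-like kinase (0.935), and Dipk1a (0.931). For Cebpb they were Lrrc61 (0.933), Gprin3 (0.908) and Flt3l, a haematopoietic cytokine (0.908).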

How the data were processed

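Liver RNA was measured on 12 Affymetrix arrays with 35556 transcript clusters in the deposited value table. Per the submitters' processing notes the values were made with RMA, and the table's log2 signals were deposited by the authors in that form. RMA corrects background, makes the arrays' distributions alike and summarises probes, so a shift common to most genes cannot be seen. Build, version and scan batches are not given in the sources used here, and arrays have no read depth: their number limits the precision. Clusters with 1 gene in the platform annotation numbered 21789, with several 1621 and with none 12146. The cluster of highest mean over the 12 arrays stood for a gene.

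Genotypes were taken from the titles. Genes above the 40th percentile of the array on at least 3 arrays (13977) were fitted with limma 3.58.1 in R 4.3.3 (lmFit and eBayes, 4 genotype means over all 12 arrays, 8 residual degrees of freedom), with Benjamini-Hochberg adjustment at 0.05. The fit was tested on simulated data. The members and gene lists were chosen with earlier results of these data known. The text names all members and the 3 genes most alike to each called member. Of each list of targets, factors or cofactors it names the genes called in the planned comparisons, at most the 4 largest changes in each. Means of both Stat3 and of both Mdr2 effects were added after the values were seen. Alternatives were other filters, scalings, weights, covariates, the letter as a block and leaving out each array. Promoter windows came from RefSeq (GRCm38.p6). Identities between the proteins were not computed. The letters were not used as pairs in the main fit. Arrays of a shared letter correlated in their deviations from the group means at -0.409 to 0.366, with 4 of 18 pairs above 0.1. Arrays of different letters did so at -0.373 to 0.482, with 14 of 36 above 0.1. Between Stat3Δhc and Stat3Fl/Fl, shared letters gave 0.268, 0.073 and 0.366, and different letters -0.349 to 0.175. With 3 arrays a group, a pairing there cannot be told.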

Additional observations from a re-analysis of the deposited data

How the results depend on the processing

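Over 25 alternative settings, 12 of which leave out an array, the number of all genes called depended strongly on the setting. The muscle mean separates the Mdr2 groups on these arrays, at 8.57 to 9.26 without and 5.44 to 5.8 with the Mdr2 knockout. As a covariate it left 0 calls in both Mdr2 comparisons and in their mean. It also left 0 in the difference of the Stat3 effects. There and for the other settings the cause was not tested. Reported counts were 361 (Stat3 without the Mdr2 knockout), 806 (on it), 10 (difference), 1785 and 2431 (Mdr2 loss in floxed and Stat3Δhc liver), 1421 (both Stat3 effects) and 3438 (both Mdr2 effects). Array weights gave 2955, 2298, 567, 5830 for Mdr2 loss in Stat3Δhc liver and 3691 for both Stat3 effects. The Xist and Y-linked covariate gave 37 on the knockout, 6 for the difference, 102 for Mdr2 loss in floxed liver, 538 for both Stat3 and 798 for both Mdr2 effects. The pancreas covariate gave 2 for the difference, 1027, 817 and 1486 for the Mdr2 contrasts. Fits of only the compared groups gave 230 on the knockout and 1541 for Mdr2 loss in Stat3Δhc liver. With the letter as a replicate block 237, 473 and 3 genes were called in the Stat3 comparisons and their difference. No filter gave 6 and trend with robust eBayes 23 for the difference. Groups by source name gave 1421 for the difference and 10 for both Stat3 effects, which that swap exchanges.

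Leaving out an array gave 69 to 753, 302 to 1475, 0 to 64, 1105 to 2129, 1156 to 2613, 744 to 1691 and 2720 to 3347 calls in the order above. Scaling moved the split of higher to all calls on the Mdr2 knockout from 261 of 806 to 466 of 909 with cyclic loess. Median centring moved it to 673 of 1561 for Mdr2 loss in floxed liver (reported 995 of 1785), to 635 of 2687 in Stat3Δhc liver (964 of 2431) and to 1019 of 3558 over both (1538 of 3438).

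Of the factors, 0 were called with Stat3 deletion without the Mdr2 knockout, but 2 with array weights and 1 with only the compared groups. Those settings called 2955 and 289 of all 13977 tested genes. Array weights gave array A of Stat3Δhc a weight of 9.01, against 0.26 to 2.86 on the other arrays. On the knockout the 60th percentile filter and array weights called 1, and 1060 and 2298 of all genes. Leave-one-out counts ran from 0 to 1 in each of these comparisons and in both Mdr2 comparisons, from 1 to 2 for both Stat3 effects and from 0 to 2 for both Mdr2 effects. For Mdr2 loss in floxed liver the 60th percentile filter, cyclic loess, trend, array weights and source name groups called 1. Of all genes they called 1765, 2053, 1921, 2330 and 2233. In Stat3Δhc liver no filter, cyclic loess, the block and both tissue covariates called 0 and array weights 2. All genes called there were 2332, 2274, 1865, 817 (pancreas) and 0 (muscle), and 5830 with array weights. For both Stat3 effects the 60th percentile filter, trend, array weights and the pancreas covariate called 2, and 1504, 1555, 3691 and 1381 of all genes. Source name groups and the Xist and Y-linked covariate called 0, and 10 and 538 of all genes. For both Mdr2 effects no filter, median centring and the block called 1, and 3361, 3558 and 3042 of all genes. The 3 covariates called 0, and 0 to 1486 of all genes. The 60th percentile filter, trend and array weights called 3, with Foxa2 added (limma adjusted p = 0.0454, 0.0423 and 0.0135). They called 3102, 3485 and 4978 of all genes. The block ended the Foxa2 call (adjusted p = 0.0769) and that of Hnf4a over both Mdr2 effects (0.0682).

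Values counted as reversed changed sign and were called in the reported or the alternative fit. By source name they were those of Onecut1: 2.56 in the difference, called as the 1 factor, 1.36 for Mdr2 loss in Stat3Δhc liver and 0.10 over both Stat3 effects. With the muscle covariate they were Hnf4a (0.00) and Cebpb (-0.17) over both Mdr2 effects. Sign changes with no call in either fit are not counted. By source name Onecut1 thus stood at 1.37 with Stat3 deletion on the Mdr2 knockout and at -1.19 with Mdr2 loss in floxed liver. Of the members' log2 changes under these alternatives, 1135 kept direction and side of the threshold or were called in neither fit, 36 lost a call, 28 gained one and 5 reversed.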
